A study of Homo sapiens with 12 samples.

Results

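The 6 glypican genes (GPC1 to GPC6) and the 4 syndecan genes (SDC1 to SDC4) were examined in SW1353 cells, an established line from a human chondrosarcoma with which cartilage cells are modelled. These 10 genes were taken by symbol from the 40490 Ensembl gene identifiers of each file, with 1 identifier per gene. The set was chosen because GPC6 was higher with a miR-455-3p mimic and lower with a miR-455-3p inhibitor, so the GPC6 values in those comparisons are a description without a test, and its 9 relatives carry the tests. Cells received the mimic of miR-455-3p, its inhibitor, or the control oligonucleotide of either one, each at 50 nM, and RNA was taken after 48 hours. The 4 groups, called mimic, mimic control, inhibitor and inhibitor control, had 3 RNA-seq libraries each. The mimic adds synthetic microRNA to the cell and the inhibitor binds the mature form, and both control groups were also transfected. The mature microRNA itself was not quantified. The comparison asks which transcripts differ when this microRNA is added or blocked in this chondrosarcoma line.

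Glypicans and syndecans are the main families of cell-surface proteoglycans that carry heparan sulfate, long sulfated sugar chains to which growth factors bind. Glypicans are held on the outer membrane leaflet by a glycosylphosphatidylinositol anchor, whereas syndecans span the membrane and have a short cytoplasmic tail. Through their chains they affect how FGF, Wnt, Hedgehog and BMP ligands reach their receptors. In the growth plate, GPC6 is known from omodysplasia, a short-limb disorder caused by its loss, and GPC3 from an overgrowth syndrome. Syndecan-3 is expressed in developing cartilage, and syndecan-4 acts at focal adhesions.

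The mature microRNA and the matches to its seed in the members' 3′ UTRs are shown because the mimic and inhibitor differ in whether this seed is present or blocked. In the microRNA the capitals mark the seed, bases 2 to 8 (RefSeq, GRCh38.p14, chromosome 9, bases 114209487 to 114209507, plus strand).
hsa-miR-455-3p: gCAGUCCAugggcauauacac
The longest annotated 3′ UTR of each member was searched on the transcript strand for TGGACTG, the full 7-base match, and for GGACTG, the 6-base match, which is called 7mer-A1 where an A follows it.

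No member had TGGACTG, a match found in 12% of the 18816 genes whose 3′ UTR had 50 bases or more. GPC6, with the longest 3′ UTR of the 10 genes (4184 bases), had not even GGACTG, which 58.1% of the 2096 genes whose 3′ UTR was within 25% of that length had. A 6-base match was present in 5 relatives, in each case in the last exon of the transcript searched. They are given in windows of 30 bases, with the match in capitals, because these are the only seed matches in both families (GRCh38, GENCODE 29).
GPC1 7mer-A1, chr2:240466310-240466339, plus strand: acagaggccaaGGACTGActttgccaaaaa
GPC1 6mer, chr2:240466910-240466939, plus strand: tgaggagtctgaGGACTGtcctcccacaga
GPC2 7mer-A1, chr7:100169795-100169824, minus strand: tgcagggcaggGGACTGAgggtgcttgagt
GPC4 6mer, chrX:133302670-133302699, minus strand: tgggaggaaaagGGACTGtgcattgagttg
SDC1 6mer, chr2:20201793-20201822, minus strand: ttcagacagagaGGACTGtagggagggcgg
SDC3 6mer, chr1:30873114-30873143, minus strand: agcccaagcctgGGACTGggcctggaacct
GPC3, GPC5, SDC2 and SDC4 had no match. A match is a description of the sequence and is not a measured site, and 30.9% of all 18816 genes had a match of some kind.

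Values are a normalised signal per gene, namely estimated read counts divided by a size factor per library and not corrected for gene length. Normalised totals were 10974100 to 12016800 per library, and estimated total counts were 10.5 to 12.5 in units of 1e6. Mimic replicate 3 stood apart. On the first principal component (25% of the variance) it lay at 20.9, against -59.7 and -41.5 for mimic replicates 1 and 2, and beside the inhibitor controls at 21.1 to 31.7. The controls also differed from each other in 10.1% of the 16468 genes tested. Of the 9 cartilage markers, COL2A1 was listed at 0 in all 12 libraries and ACAN was between 5.75 and 28.4. COL9A1, COMP, MATN3, HAPLN1 and PRG4 were at 15.2 or less, whereas SOX9 was between 994 and 1415 and COL11A1 between 309 and 635. The mesenchymal markers VIM, COL1A1, COL1A2 and FN1 were all at 4310 or more. The sources used here do not state whether the libraries of a group came from separate cultures, so the spread behind each p-value may be technical.

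GPC6 (ENSG00000183098) lies on chromosome 13, bases 93226842 to 94407401, plus strand, and spans 1180560 bases with 9 exons, in the same orientation as GPC5 on that chromosome. Its signal was 1571, 1673 and 1525 in the mimic libraries, against 1007, 1001 and 808 in the mimic control libraries. In the inhibitor libraries it was 418, 605 and 487, against 1683, 1446 and 1610 in the inhibitor control libraries. No library of a treated group overlapped its control group in either comparison. In bulk RNA, fewer expressing cells and less RNA per cell cannot be told apart. The log2 difference was 0.77 for the mimic and -1.66 for the inhibitor. The inhibitor controls were also above the mimic controls, by 0.76 on the log2 scale, and the mimic libraries (mean 1590 ± 75.7, SD, n = 3) overlapped the inhibitor controls (1580 ± 121, SD, n = 3). Thus GPC6 had about the same level in the mimic and inhibitor control groups, was lower in the mimic control group (939 ± 113, SD, n = 3), and was lowest in the inhibitor group (503 ± 94.6, SD, n = 3). Mimic replicate 3, which stood apart over all genes, was near the other mimic libraries for GPC6, and the mimic difference without it was 0.80. Of 5 annotated genes on the opposite strand within GPC6, 2 were in the files and both were listed at 0. The sources used here do not state whether strand was used in counting, so sense and antisense reads cannot be told apart.

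**Figure D1:**
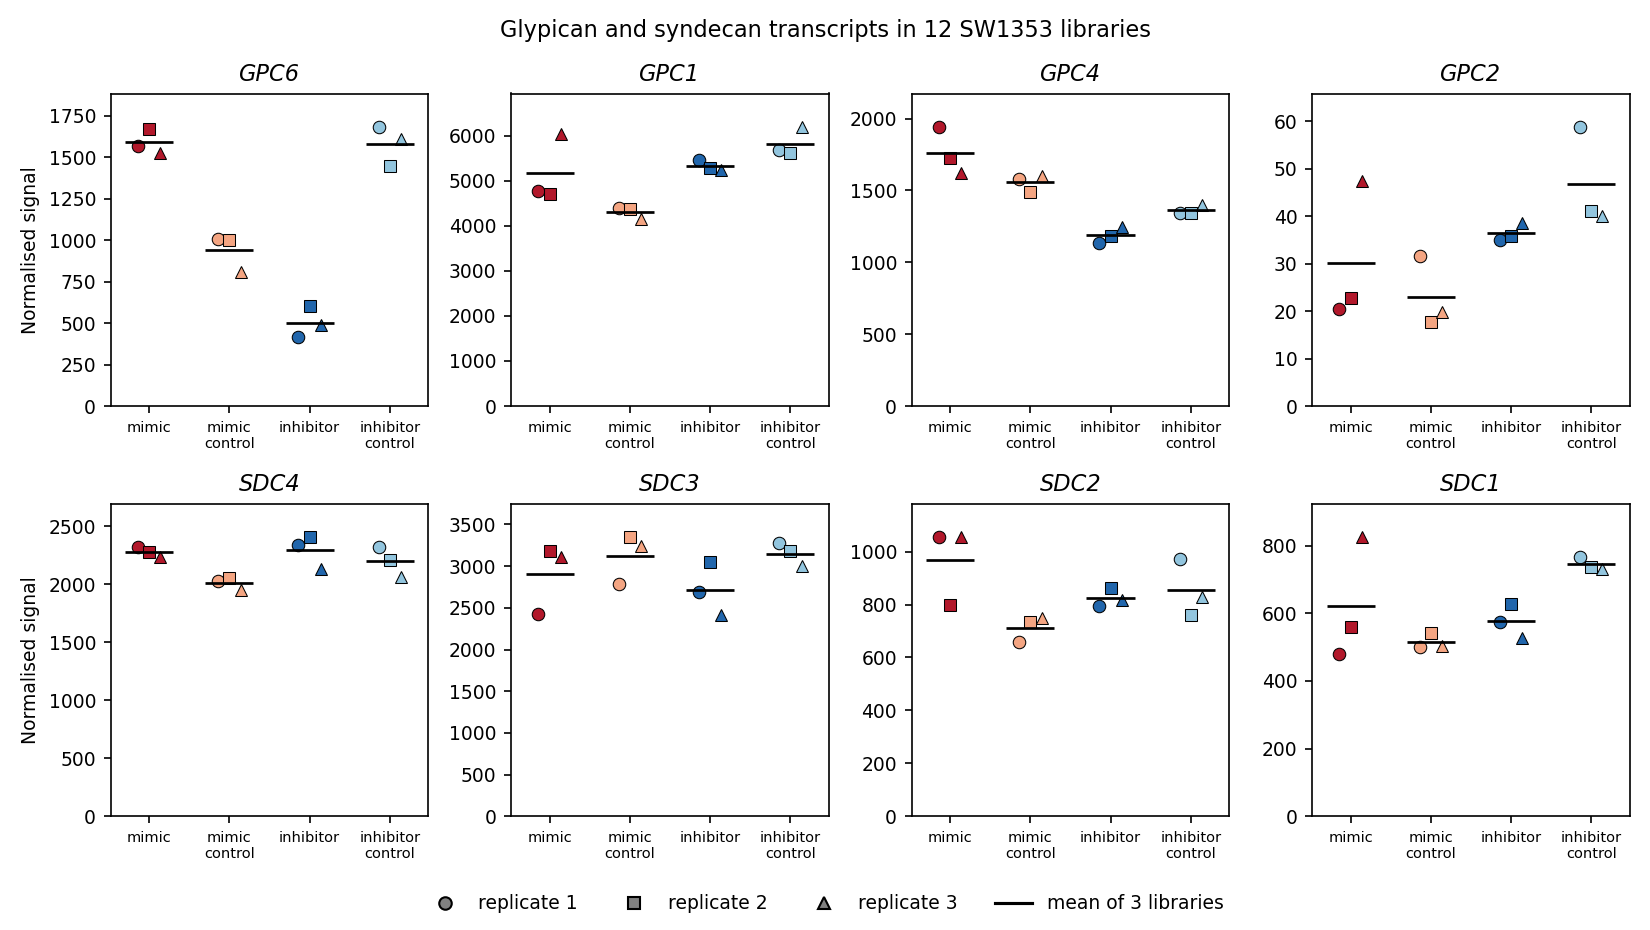
Normalised signal (vertical axis, from 0, one scale per gene) of the 8 members that passed the filter on low values, by group. Points are libraries, with a shape per replicate, and lines are means of 3. GPC6 was at 418 to 605 in the inhibitor group and at 1446 to 1683 in the inhibitor control group, while mimic replicate 3 was above the other mimic libraries for GPC1, GPC2 and SDC1.

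GPC1 was the most abundant glypican, and it followed the direction of GPC6 in both comparisons without passing the test in either. GPC1 is a broadly expressed glypican whose chains bind FGF2. Its signal was 4772, 4710 and 6046 with the mimic, against 4409, 4377 and 4162 with the mimic control. It was 5472, 5293 and 5231 with the inhibitor, against 5683, 5609 and 6197 with the inhibitor control. The groups did not overlap in either comparison, but the spread within the mimic group was larger than its distance from the control group, since replicate 3 was high. The log2 difference was 0.25 ± 0.091 for the mimic (SE, adjusted p = 0.243) and -0.13 ± 0.091 for the inhibitor (SE, adjusted p = 0.567). Without mimic replicate 3 the mimic difference was 0.14 (adjusted p = 0.214).

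GPC4 had the same order of groups as GPC1 within both pairs, but its controls were the other way round. GPC4, which is next to GPC3 on chromosome X, is a close paralogue of GPC6 and is known to modulate Wnt and BMP signalling. Its signal was 1941, 1726 and 1619 with the mimic, against 1579, 1491 and 1603 with the mimic control. With the inhibitor it was 1134, 1182 and 1248, against 1345, 1341 and 1398 with the inhibitor control. Neither treated group overlapped its control, although mimic replicate 3 was only just above the highest mimic control. The differences were 0.17 ± 0.080 for the mimic (adjusted p = 0.376) and -0.20 ± 0.080 for the inhibitor (adjusted p = 0.283), both on the log2 scale with SE. The mimic effect minus the inhibitor effect was 0.37 (95% interval 0.13 to 0.62, adjusted p = 0.175). Without mimic replicate 3 this was 0.43 and passed the threshold (adjusted p = 0.0394).

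GPC2 was low and imprecise. GPC2 is best known from the developing nervous system and neuroblastoma. Its signal was 20.5, 22.7 and 47.4 with the mimic, against 31.5, 17.6 and 19.9 with the mimic control, and these groups overlapped. With the inhibitor it was 35.0, 35.8 and 38.5, against 58.8, 41.2 and 40.1 with the inhibitor control, and these did not overlap. An estimated 17.5 to 65.3 reads per library lay behind these values, so counting alone gives a standard deviation of 12.4% to 23.9%. The 95% interval of the log2 difference was -0.38 to 1.03 for the mimic (adjusted p = 0.737) and -1.04 to 0.37 for the inhibitor (adjusted p = 0.693).

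GPC3 and GPC5 did not pass the filter on low values (a signal of 5 or more in 47% of libraries) and were not tested. GPC3, the glypican known as a liver tumour antigen, was listed between 0 and 7.51 over the 12 libraries. GPC5, a paralogue of GPC3 and the neighbour of GPC6 on chromosome 13, was listed between 0 and 5.60. A count of 0 in a library still allows up to 3 counts, which is a signal of 2.70 to 3.29, so differences between groups in these genes were not detectable at this depth. GPC6 and its neighbour GPC5 thus differed widely in level in every library.

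Among the syndecans, SDC2 and SDC4 were higher in all 3 mimic libraries than in all 3 mimic controls, and neither differed from its control with the inhibitor beyond the spread. SDC2, a syndecan of mesenchymal cells, had a signal of 1054, 797 and 1054 with the mimic, against 658, 733 and 748 with the mimic control. With the inhibitor it was 795, 864 and 816, against 972, 760 and 830 with the inhibitor control. The mimic difference was 0.43 ± 0.12 (SE, adjusted p = 0.135), the highest estimate of the 7 relatives tested. The inhibitor groups overlapped, with a difference of -0.04 (95% interval -0.31 to 0.22, adjusted p = 0.912).

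SDC4 varied least relative to its level. Its signal was 2321, 2276 and 2235 with the mimic, against 2029, 2052 and 1952 with the mimic control. With the inhibitor it was 2340, 2405 and 2128, against 2320, 2211 and 2064 with the inhibitor control. The mimic group was above its control without overlap, and the inhibitor groups overlapped. The log2 difference was 0.18 (95% interval 0.023 to 0.34, adjusted p = 0.303) for the mimic and 0.06 (-0.097 to 0.22, adjusted p = 0.759) for the inhibitor.

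SDC1 was lower with the inhibitor in every library, and in the mimic group it rested on 1 library. Syndecan-1 is the syndecan of epithelial and plasma cells, and its ectodomain is shed by metalloproteinases. Its signal was 479, 558 and 825 with the mimic, against 501, 543 and 503 with the mimic control. With the inhibitor it was 576, 629 and 525, against 767, 736 and 732 with the inhibitor control. The mimic groups overlapped, and mimic replicate 3 was above all 3 inhibitor controls. The mimic difference was 0.23 ± 0.16 (SE, adjusted p = 0.582) and 0.0043 without that library (adjusted p = 0.986). The inhibitor difference was -0.37 ± 0.16 (SE, adjusted p = 0.295). It passed the threshold when mimic replicate 3 was left out (adjusted p = 0.0338), since all 4 groups share 1 estimate of the spread.

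SDC3 overlapped in both comparisons. Its signal was 2427, 3180 and 3109 with the mimic, against 2780, 3347 and 3243 with the mimic control. It was 2694, 3045 and 2409 with the inhibitor, against 3276, 3176 and 2998 with the inhibitor control. The log2 difference was -0.11 (95% interval -0.37 to 0.14, adjusted p = 0.754) for the mimic and -0.22 (-0.47 to 0.035, adjusted p = 0.421) for the inhibitor.

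Across the relatives, none of the 7 tested passed the adjusted threshold with the mimic in limma, where 0.759% of all genes tested did, and 4 had an unadjusted p under 0.05 (GPC1, GPC4, SDC2 and SDC4, all higher), where 13.2% of all genes did. These 4 were also the ones whose mimic libraries were all above their controls, where 9.92% of all genes were. Estimates were above 0 for 6 of the 7, and their median was 0.23, beside 0.013 for all genes. When mimic replicate 3 was left out, 5 of the 7 were above 0 and the median was 0.14, with GPC2 at -0.05. With the inhibitor, 0 of 7 passed, where 1.55% of all genes did, and 2 had an unadjusted p under 0.05 (GPC4 and SDC1, both lower), where 14.5% of all genes did. All inhibitor libraries were below their controls for GPC1, GPC2, GPC4 and SDC1, which is 4 of 7, where 10.9% of all genes were. Estimates were below 0 for 6 of the 7, and their median was -0.20, beside 0.025 for all genes.

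GPC1 and GPC4 were the 2 relatives that, like GPC6, lay above the control with the mimic and below it with the inhibitor without overlap. Their differences of 0.25 and 0.17 with the mimic stand beside 0.77 for GPC6, and those of -0.13 and -0.20 with the inhibitor stand beside -1.66. Over all genes, 9.92% lay above the control without overlap with the mimic, and 10.9% below it with the inhibitor. The share of all genes that did both was not counted. The mimic effect minus the inhibitor effect was above 0 for all 7 relatives (0.11 to 0.66), and none passed the threshold (adjusted p 0.175 to 0.850), where 0.85% of all genes did. The range without mimic replicate 3 was 0.05 to 0.43, with GPC2 at 0.28 in place of 0.66 and SDC3 at 0.05 in place of 0.11. GPC4 passed the threshold in that run, where 291 of all 16316 genes passed as higher and 224 as lower. With mimic replicate 3 kept, an unadjusted p under 0.05 was found for 4 of the relatives, where 12.8% of all genes had one. The GPC6 value of the mimic effect minus the inhibitor effect was 2.43. This quantity also holds the gap between the controls. Group means were lower with the mimic than with the inhibitor for GPC1 (5176 against 5332), GPC2 (30.2 against 36.4) and SDC4 (2277 against 2291). They were higher with the mimic for GPC4, SDC1, SDC2 and SDC3.

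The controls themselves differed for part of the family. GPC1 rose by 0.43 ± 0.091 on the log2 scale in the inhibitor controls over the mimic controls (SE, adjusted p = 0.0160), with means of 5830 ± 320.4 and 4316 ± 134.4 (SD, n = 3 each). SDC1 rose by 0.53 ± 0.16 (SE, adjusted p = 0.0499), with 745 ± 19.4 and 516 ± 23.3 (SD, n = 3 each). These were 2 of 7 relatives, where 4.74% of all genes rose. The GPC1 call was lost without mimic control replicate 3 (adjusted p = 0.0712) and without inhibitor control replicate 1 (0.0591). The SDC1 call, next to the threshold, was lost when any library but mimic replicate 1 or 3 was left out (0.0581 to 0.142). The inhibitor controls were also above the mimic controls without overlap for GPC2, SDC2 and SDC4, giving 5 of 7 with GPC1 and SDC1, where 19.7% of all genes were. They were below the mimic controls for GPC4, which is 1 of 7, where 21.6% of all genes were. GPC2 had a difference of 1.03 (adjusted p = 0.0617) and GPC4 of -0.19 (adjusted p = 0.130). This comparison shares its libraries with the mimic and the inhibitor comparisons. For GPC1 and GPC6, the mimic group was above its control and the inhibitor group below its own, each time in the direction of the other control. Effects of the control oligonucleotides and of the mimic or inhibitor cannot be told apart in these values.

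**Figure D2:**
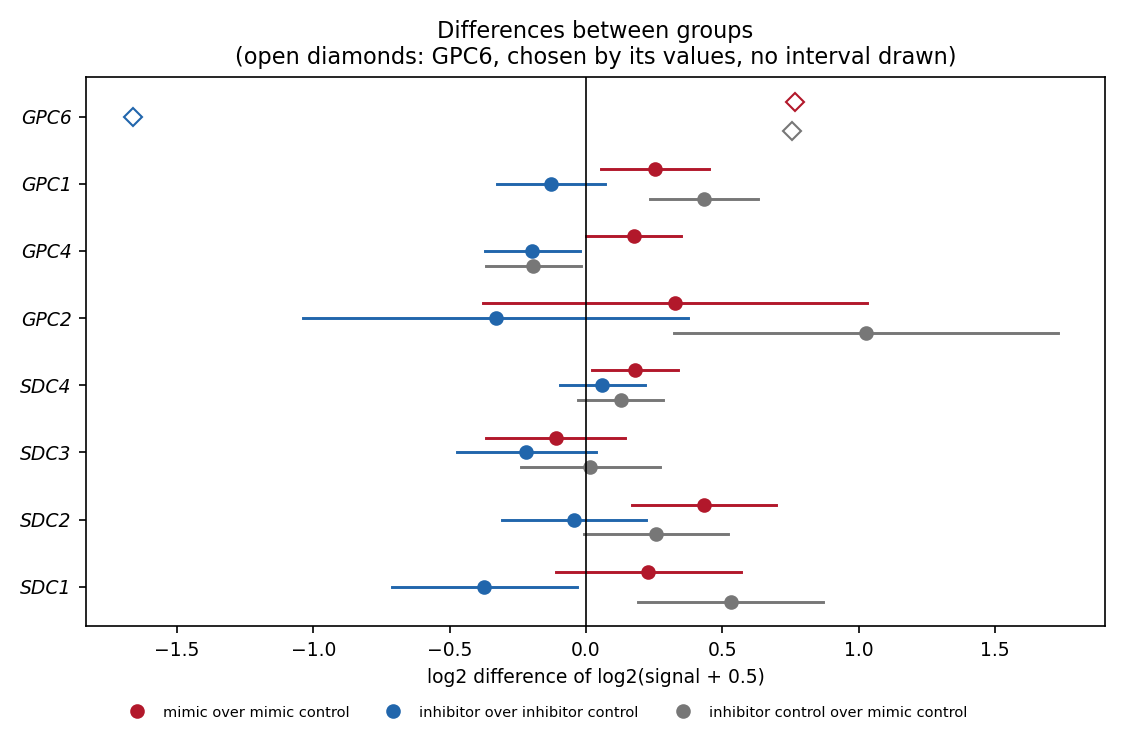
Log2 difference of the signal (horizontal axis, after adding 0.5) for 8 members, for mimic over mimic control (red), inhibitor over inhibitor control (blue) and inhibitor control over mimic control (grey). Points are estimates and lines 95% intervals. Open diamonds mark GPC6, at 0.77, -1.66 and 0.76, while the relatives lay between -0.11 and 0.43 with the mimic and between -0.37 and 0.06 with the inhibitor.

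Per kilobase of the longest protein coding transcript, the scale on which genes can be set side by side, the levels over the 12 libraries were in the order GPC1 (1391 ± 181), SDC4 (840 ± 55.7), SDC3 (465 ± 50.5), GPC4 (296 ± 47.9), SDC2 (223 ± 33.4), SDC1 (187 ± 36.4), GPC6 (178 ± 75.3), GPC2 (13.5 ± 4.90), GPC3 (0.836 ± 1.00) and GPC5 (0.536 ± 0.571), each as mean ± SD of the signal per kilobase. On this scale GPC1 was first and SDC4 second in every library. The gaps between SDC1 and GPC6 and between GPC3 and GPC5 were within their SD, that between SDC2 and SDC1 was about as large as their SD, and the other neighbours in this order lay further apart than either SD. GPC4 was above SDC2 in all 12 libraries. For GPC6 the spread was mostly between groups, and its rank among the 10 was 7 in all 3 inhibitor libraries and 5 in all 3 inhibitor controls. Its level per kilobase was 246 ± 11.7 with the mimic and 145 ± 17.5 with the mimic control, and 77.8 ± 14.6 with the inhibitor and 244 ± 18.7 with the inhibitor control (SD, n = 3 each). With the median transcript length in place of the longest, its mean over the 12 libraries was 318 per kilobase and its rank was 5. The order of the others depends on that choice too: SDC2, which has several short annotated transcripts, was at 842 ± 126 with the median length, beside SDC4 at 840 ± 55.7 and SDC3 at 746 ± 80.9 (SD over 12 libraries), and GPC1 was first with either length.

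The make-up of the glypican transcripts differed accordingly. GPC6 was 12.3% ± 1.54 of the summed glypican signal per kilobase with the mimic and 8.88% ± 0.834 with the mimic control, and 4.40% ± 0.829 with the inhibitor and 11.6% ± 0.771 with the inhibitor control (SD, n = 3 each). GPC1 was 69.2% ± 3.91 with the mimic and 71.2% ± 0.482 with the mimic control, and 81.1% ± 1.29 with the inhibitor and 74.4% ± 0.992 with the inhibitor control. Beside the inhibitor control, the larger GPC1 share with the inhibitor came without a higher GPC1 level (1436 ± 33.8 against 1570 ± 86.3 per kilobase). The GPC1 level with the inhibitor was above that of the mimic control (1162 ± 36.2, SD, n = 3 each). The glypican sum was 2008 ± 176 per kilobase with the mimic and 1632 ± 50.3 with the mimic control, and 1770 ± 16.9 with the inhibitor and 2108 ± 99.6 with the inhibitor control. The libraries of the treated groups did not overlap their controls in this sum. The syndecan sum was 1772 ± 91.6 and 1605 ± 64.9 with the mimic and its control, and 1696 ± 125 and 1788 ± 96.3 with the inhibitor and its control, and there the inhibitor groups overlapped. The glypican sum holds GPC6, which was chosen by its values, and both sums are given as a description.

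**Figure D3:**
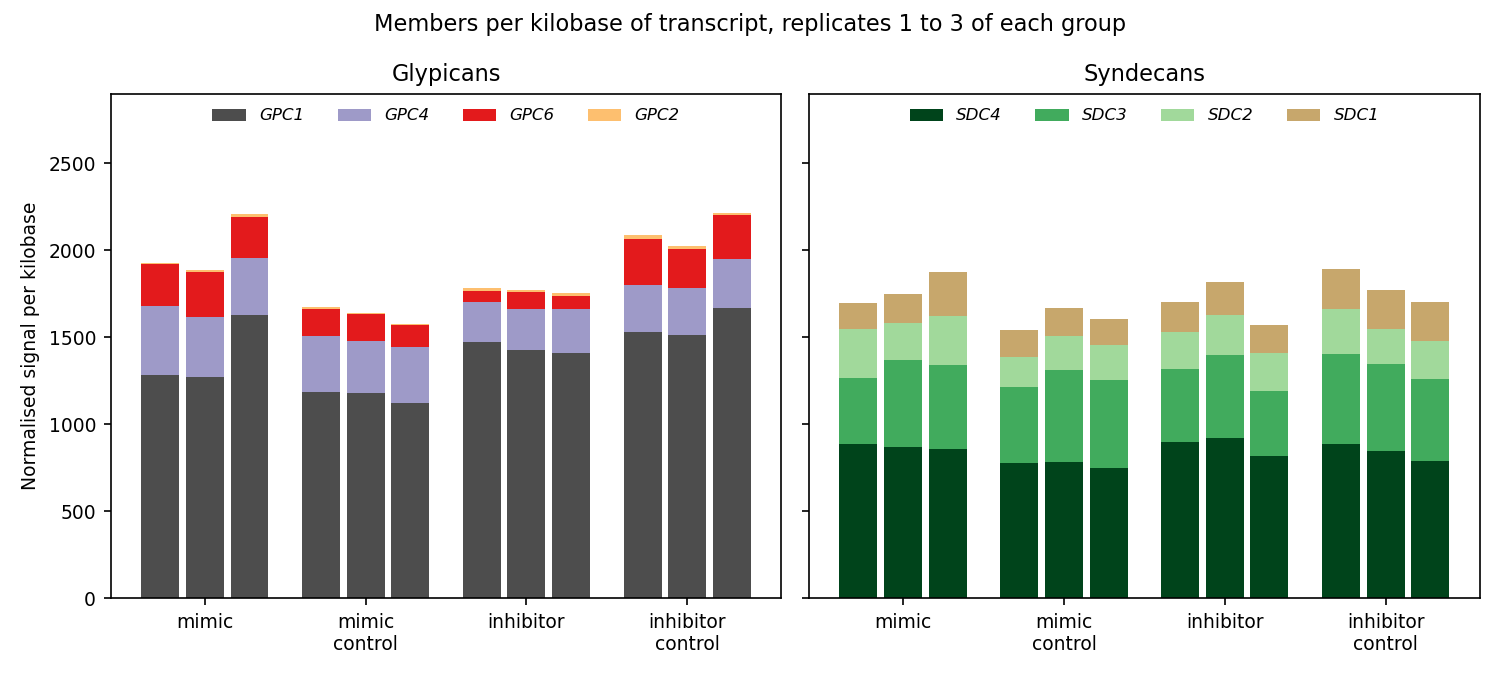
Normalised signal per kilobase of transcript (vertical axis), stacked by gene, for the glypicans (left) and syndecans (right) in each of the 12 libraries; GPC3 and GPC5 are too low to be drawn. GPC6 (red) was 4.40% of the glypican signal in the inhibitor group and 11.6% in the inhibitor control group, and GPC1 (dark grey) was the largest part of each bar.

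The genes that build, edit and break down heparan sulfate, and those that bind syndecan tails or carry the same chains, were set beside the members in 6 lists of 74 genes, of which 62 were tested. With the mimic none of the 62 passed the threshold in limma, where 0.759% of all genes did, and 13 had an unadjusted p under 0.05, where 13.2% of all genes did. Without mimic replicate 3, 6 passed (NRP1, EXTL3, SLC35B2 and UGP2 higher, AGRN and NAGLU lower). Calls rose over all genes in that run, where 466 of 16316 passed as higher and 331 as lower. The median log2 difference of the 62 was 0.005, beside 0.013 for all genes. With the inhibitor, 2 rose, where 0.765% of all genes did, and 2 fell, where 0.783% did, and the median was -0.13, beside 0.025 for all genes. Estimates were below 0 for 48 of the 62. The inhibitor libraries were all below their controls for 27 of them, where 10.9% of all genes were, and all above for 8, where 14.4% were. An unadjusted p under 0.05 was found for 23, where 14.5% of all genes had one, and 19 of them were lower. When mimic replicate 3 was left out, 8 genes passed with the inhibitor, where 331 of all 16316 genes passed as higher and 322 as lower.

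SPOCK1, a testican proteoglycan of the extracellular matrix, fell by 0.85 ± 0.13 on the log2 scale with the inhibitor (SE, adjusted p = 0.00680). Its signal was 345, 482 and 371 with the inhibitor, against 791, 739 and 625 with the inhibitor control. The mimic libraries had 834, 773 and 691, against 728, 761 and 773 in the mimic controls, so that the inhibitor group alone was apart. EXT2, which with EXT1 forms the polymerase that extends the heparan sulfate chain, fell by 0.45 ± 0.076 (SE, adjusted p = 0.0106). Its signal was 949, 921 and 965 with the inhibitor, against 1417, 1257 and 1210 with the inhibitor control. The mimic libraries had 1352, 1289 and 1251, against 1274, 1287 and 1272 in the mimic controls. Both genes thus had alike levels in the other 3 groups, whereas GPC6 differed between the controls. The EXT2 call was lost without inhibitor control replicate 1 (adjusted p = 0.0606) and without inhibitor replicate 1 (0.0555), and the SPOCK1 call was kept whichever library was left out.

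EZR and MMP7 rose with the inhibitor. Ezrin links membrane proteins, syndecan-2 among them, to actin, and its signal was 6620, 6766 and 7471 with the inhibitor, against 4295, 4565 and 5374 with the inhibitor control. The difference was 0.56 ± 0.093 (SE, adjusted p = 0.0103). This call was lost without inhibitor control replicate 1 (0.0598), inhibitor control replicate 2 (0.0577) or inhibitor replicate 3 (0.0585). EZR was also above its control with the mimic, at 4668, 4621 and 4743 against 3404, 3645 and 4061. That difference was 0.34 (adjusted p = 0.126). MMP7, a metalloproteinase that can shed syndecan-1, had a signal of 298, 279 and 250 with the inhibitor, against 165, 166 and 143 with the inhibitor control. The difference was 0.81 (adjusted p = 0.0291). It was lost without mimic control replicate 1 (0.0504) and without any single library of its own comparison (0.0651 to 0.138). The mimic groups overlapped for MMP7 (-0.06, adjusted p = 0.916). In the inhibitor comparison the epithelial marker CLDN4 averaged 45.9 with the inhibitor and 13.9 with the inhibitor control. The summed signal of the 5 epithelial markers was 50.1 to 114 with the inhibitor and 31 to 34.2 with the inhibitor control. It was 39.3 to 82.0 in the mimic controls, which overlaps the inhibitor range, and 23.3 to 45.7 with the mimic. CDH1 averaged 13.5 with the inhibitor, 3.72 with its control and 15.5 in the mimic controls. KRT19 averaged 2.99 with the inhibitor and 3.49 with its control. EPCAM was at 0 to 4.31 in all libraries, and 2 of the 5 passed the filter. The part of these markers in the MMP7, EZR and SDC1 values was not tested.

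Of the 28 chain synthesis genes 20 were tested, and 18 of them had estimates below 0 with the inhibitor, with a median of -0.18, while 12 had estimates above 0 with the mimic (median 0.03). Beside EXT2, 10 more were below the inhibitor control without overlap, where 10.9% of all genes were, among them FAM20B, the xylose kinase of the linkage region (-0.30, adjusted p = 0.179), and HS3ST3A1, a 3-O-sulfotransferase (-0.38, adjusted p = 0.337). HS3ST3A1 and EXTL3, a chain initiation enzyme, were above the mimic control with the mimic without overlap, by 0.54 (adjusted p = 0.183) and 0.46 (adjusted p = 0.149). These were 2 of 20, where 9.92% of all genes were. EXTL3 passed without mimic replicate 3 (0.60, adjusted p = 0.0202). Of the 7 precursor supply genes, 6 had estimates above 0 with the mimic and 4 with the inhibitor. SLC35B2, the Golgi carrier of the sulfate donor, was above its control with the mimic by 0.38 (adjusted p = 0.0771). Without mimic replicate 3 the estimate was smaller, at 0.27, and passed (adjusted p = 0.0279).

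The 8 lysosomal enzymes of heparan sulfate breakdown had estimates below 0 in both comparisons, with a median of -0.18 for the mimic and of -0.17 for the inhibitor, and none passed the threshold in either. Without mimic replicate 3, NAGLU, the glucosaminidase, passed with the mimic (-0.50, adjusted p = 0.00617, against -0.30 with all libraries). Examples with the inhibitor were SGSH, the sulfamidase (-0.46, adjusted p = 0.115, and 0.0317 without mimic replicate 3), and HGSNAT, the acetyltransferase (-0.30, adjusted p = 0.168). Of 10 tested genes of chain editing and core protein release, 6 had estimates below 0 with the inhibitor, among them MMP14, a membrane metalloproteinase that sheds syndecan-1 (-0.35, adjusted p = 0.0536, and 0.00859 without mimic replicate 3). Of the 8 cytoplasmic partners, EZR alone passed with the inhibitor, and SDCBP (syntenin), the main PDZ partner of syndecan tails, had a difference of 0.12 (adjusted p = 0.592). Of the 9 other heparan sulfate proteoglycans tested, SPOCK1 alone passed. NRP1, a part-time proteoglycan and co-receptor of VEGF and semaphorins, was the list gene with the highest mimic estimate. Its signal was 11504, 11365 and 8143 with the mimic, against 6077, 7087 and 6936 with the mimic control, a difference of 0.61 (adjusted p = 0.0529). It was -0.46 with the inhibitor (adjusted p = 0.110). Without mimic replicate 3, which was nearest to the controls, both NRP1 differences passed (0.77, adjusted p = 0.00187, and -0.46, adjusted p = 0.0132).

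In the inhibitor controls over the mimic controls, 6 of the 62 list genes rose (B3GALT6, SLC35B2, MMP9, SDCBP2, GIPC1 and EZR), where 4.74% of all genes did, and 5 fell, among them HS3ST2, ADAM10, ADAM17 and SDCBP, where 5.38% did. The log2 difference of HS3ST2 was -1.15 (adjusted p = 0.0316), and that of B3GALT6, a linkage galactosyltransferase, was 0.60 (adjusted p = 0.0307). ADAM10 and ADAM17, both sheddases of syndecans, had differences of -0.35 (adjusted p = 0.0349) and -0.41 (adjusted p = 0.0235). None of the 11 passed without inhibitor control replicate 1, where 128 of all 16297 genes rose and 143 fell. Without inhibitor control replicate 2, 1 gene of the 62 passed, where 205 of all 16296 genes rose and 194 fell. Without mimic control replicate 3 it was also 1, where 174 of 16330 rose and 131 fell. The count was 2 without mimic control replicate 2, where 308 of 16309 rose and 351 fell. It was 5 without mimic control replicate 1 (290 of 16327 rose, 267 fell) and 6 without inhibitor control replicate 3 (412 of 16323 rose, 542 fell). Without mimic replicate 3, 17 passed, where 1811 of all 16316 genes rose and 1946 fell.

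**Figure D4:**
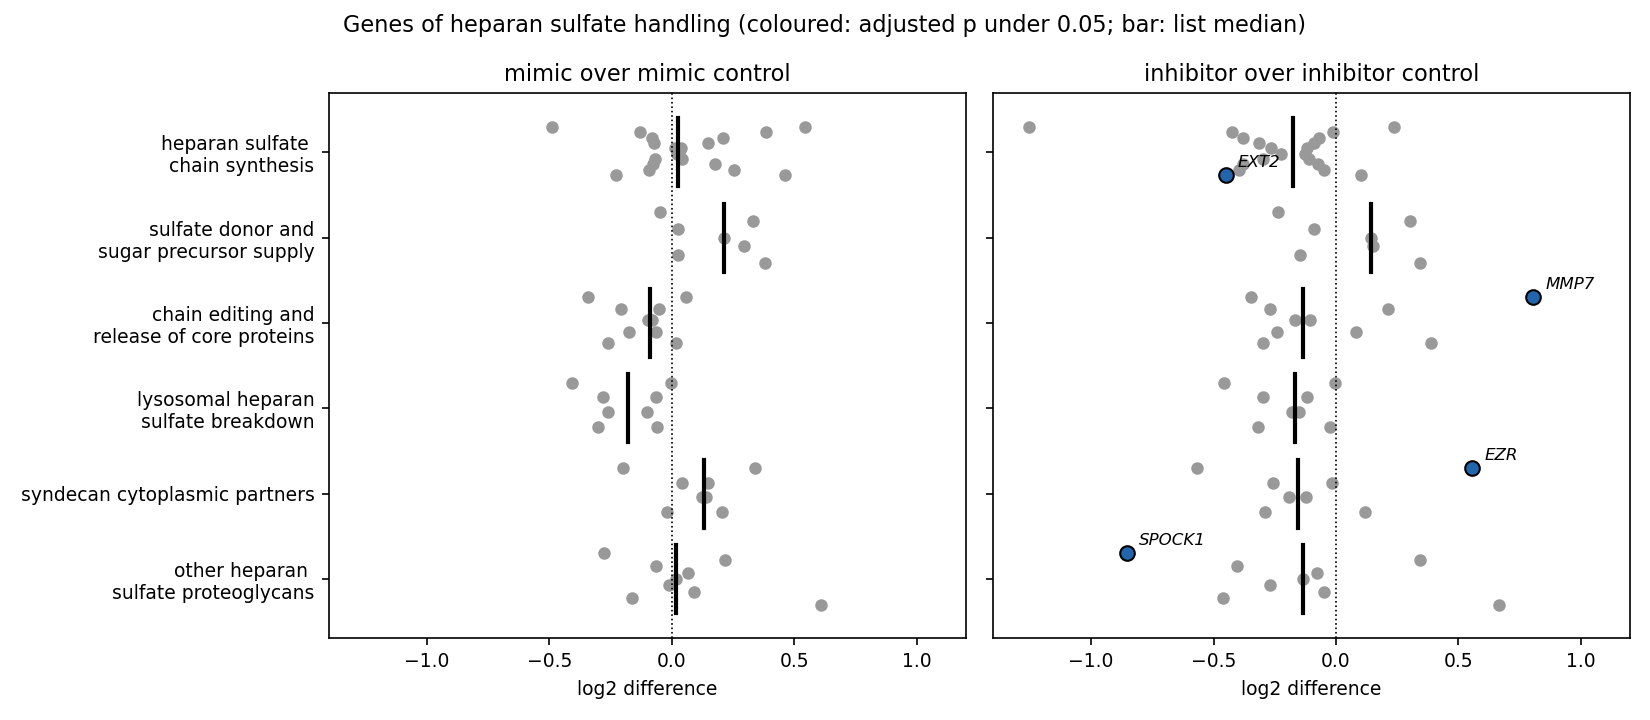
Log2 difference (horizontal axis) of the 62 tested genes in 6 lists (rows), for mimic over mimic control (left) and inhibitor over inhibitor control (right). Each point is a gene, coloured and named where the adjusted p was under 0.05, and bars are list medians. SPOCK1 (-0.85) and EXT2 (-0.45) fell and MMP7 (0.81) and EZR (0.56) rose with the inhibitor, and none passed with the mimic.

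Over the 12 libraries, the genes whose log2 signal was most like that of GPC6 were C1orf198 (Pearson's r 0.95), OR2A9P (0.94), FGFR2 (0.93) and GYS1 (0.93), and those least like it were GBP5 (-0.94), KRT71 (-0.93), GRN (-0.92) and SMOX (-0.91). These are the extremes of 16468 genes over libraries that share 4 groups, and are given as a description. FGFR2, a receptor of FGFs that need heparan sulfate for binding, averaged 773 with the mimic and 696 with the mimic control, and 531 with the inhibitor and 745 with the inhibitor control. KRT71, a hair follicle keratin, averaged 11.2 with the mimic and 19.7 with the mimic control, and 36.2 with the inhibitor and 10.8 with the inhibitor control. Among the relatives, GPC4 was the most like GPC6 (0.65), followed by SDC1 (0.41), SDC3 (0.39) and SDC2 (0.35). GPC1 (0.17), GPC2 (0.07) and SDC4 (-0.0008) were far from it.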

How the data were processed

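Per the labels and the study's methods, RNA of SW1353 cells was sequenced 48 hours after transfection. The authors used FastQC, Trim Galore, kallisto and sleuth with hg38. Not given in the sources used here: versions, annotation release and strandedness. In the deposited files, the signal per Ensembl gene was an estimated count divided by a size factor, without length correction. Reads are split between transcripts that share sequence. In genes with 1 transcript, 74.3% to 77.1% of values between 0.5 and 20 were within 0.02 of a whole multiple of the value of 1 read, which was too few for a count test. Those steps gave the estimated totals.

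Values were analysed as log2(value + 0.5), a scale that understates changes of low genes. Genes with at least 5 in at least 47% of libraries were tested (16468). A model with 4 group means over all 12 libraries was fitted with limma 3.58.1 in R 4.3.3 (eBayes with an intensity trend, two-sided), adjusted by Benjamini-Hochberg over all genes tested with a threshold of 0.05. The code was tested on simulated data. Python 3.11.15, numpy 2.4.6, pandas 2.3.3 and matplotlib 3.10.9 made tables, sequence searches and plots. Seed matches and transcript lengths came from GENCODE 29. All 10 symbols matched.

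The members and lists were chosen with earlier results of these data known. The lists were heparan sulfate chain synthesis, sulfate donor and sugar precursor supply, chain editing and release of core proteins, lysosomal breakdown, syndecan cytoplasmic partners, other heparan sulfate proteoglycans, and cell type markers. Named genes were all members, list genes past the threshold in a comparison, the 2 with the smallest p per list in the mimic and inhibitor comparisons (a part of these is described, and 1 is not reported here), and the 4 genes most and 4 least correlated with GPC6. Alternatives were another pseudocount, filter or scaling, array weights, no trend, a replicate block, only a comparison's own libraries, and leaving out each library.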

Additional observations from a re-analysis of the deposited data

How the results depend on the processing

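Over 22 alternatives the GPC6 difference stayed between 0.66 and 0.82 with the mimic and between -1.80 and -1.54 with the inhibitor. Calls of 21 of the 28 relative results were kept in every alternative run. No estimate that had passed the threshold changed sign. Of the 7 relatives, none passed with the mimic in any alternative. With the inhibitor, 2 passed (GPC4 and SDC1) with array weights, which gave mimic replicate 3 a weight of 0.212. In that comparison array weights called 651 of all 16468 genes higher and 609 lower. When a library was left out, 0 to 1 passed. For the mimic minus the inhibitor effect, 1 passed (GPC4) with array weights, where 350 of all 16468 genes passed as higher and 274 as lower. With a library left out, 0 to 1 passed. Between the controls, where 2 had passed, 4 passed with array weights or with only the libraries of the comparison. There array weights called 2176 of all 16468 genes higher and 2447 lower. The libraries of the comparison alone called 1888 of 16604 genes higher and 2031 lower. Leaving out a library gave 0 to 3. Without the filter, when 9 relatives were tested, 1 passed. The count was also 1 with median-of-ratios rescaling, without the intensity trend, or with the replicate number as a block. Same-numbered libraries did not deviate together (correlations of -0.18 to 0.063). With 3 libraries per group and mimic replicate 3 apart, this cannot show whether the numbers pair the samples.

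Of the 62 list genes, with the mimic 1 passed with a filter of at least 20 (NRP1), 1 with quantile normalization, 6 with array weights and 0 to 6 with a library left out. With the inhibitor, where 4 had passed, 15 passed with array weights and 1 to 8 with a library left out. With only the libraries of the comparison, 7 of 65 passed. Over all genes, array weights called 651 of 16468 higher and 609 lower. The comparison's own libraries alone called 199 of 16750 genes higher and 171 lower. Between the controls, where 11 had passed, 5 passed without the filter, 20 with array weights, 4 without the intensity trend, 22 with only the libraries of the comparison, and 0 to 17 with a library left out. The cause was not tested. Levels per kilobase depend on the transcript length used, and GPC6 averaged 178 with the longest and 318 with the median length. With 3 libraries per group, the full width of a relative's 95% interval was 0.31 (SDC4) to 1.41 (GPC2) on the log2 scale. These intervals come from the spread between libraries, whereas the standard deviations and floors estimated from reads cover counting error only.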
